A study of Mus musculus with 32 samples.

Results

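The levels of 10 purinergic and adenosine receptor genes were followed in the brain arteries of mice lacking Notch3 or carrying a mutant Notch3 transgene. They were the ATP-gated channels P2rx1, P2rx4 and P2rx7, the nucleotide receptors P2ry1, P2ry2, P2ry6, P2ry12 and P2ry14, and the adenosine receptors Adora1 and Adora2a. They are 10 of the 55357 genes in the count table, and all 10 passed the filter on low counts in every comparison. The set was put together with the changes already known, and P2rx1 was chosen by its log2 fold changes, which were negative in both mutants, so its values in those comparisons are given as a description, without a test. RNA sequencing of poly(A) RNA was done on dissected brain arteries from 32 mice, with 1 library per mouse and 8 mice in each of 4 groups. Notch3-/- mice and their Notch3+/+ littermates, which carry both copies of the gene, were 3 months old. TgNotch3R169C mice and their WT littermates without the transgene were 12 months old. TgNotch3R169C mice model CADASIL, an inherited disease of small arteries. They carry a mutant rat Notch3 transgene on the X chromosome in addition to their own Notch3 genes. All lines had been backcrossed to C57BL/6, no mouse was treated, and the study used both sexes, with the sex of a given mouse not in the labels.

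ATP, ADP, UTP and UDP released from nerves, platelets, endothelium or damaged cells act on P2X channels, which let in sodium and calcium, and on P2Y receptors, which signal through G proteins. Enzymes on the cell surface break these nucleotides down to adenosine, which acts on its own G protein-coupled receptors. In arteries, ATP from sympathetic nerves contracts smooth muscle through P2X1, whereas nucleotides that reach the endothelium and adenosine that reaches the muscle usually relax it.

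The P2rx1 promoter is shown because P2rx1 was lower in both mutants and because Notch receptors act on genes through the DNA-binding protein RBPJ, whose preferred site holds the letters TGGGAA. The window runs from 250 bases before to 50 bases after the annotated start, at chr11:72998895-72999194 on the plus strand of RefSeq build GRCm38.p6, with TGGGAA in capitals.
P2rx1: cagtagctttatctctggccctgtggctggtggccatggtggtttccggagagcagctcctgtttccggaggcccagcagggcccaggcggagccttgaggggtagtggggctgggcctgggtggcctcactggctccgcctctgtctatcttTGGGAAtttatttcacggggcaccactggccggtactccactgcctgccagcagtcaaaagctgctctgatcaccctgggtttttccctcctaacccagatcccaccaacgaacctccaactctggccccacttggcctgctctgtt
The match lies 97 bases before the start. Promoters were found in the RefSeq table for 8 of the 10 receptor genes, and 4 of these 8 held TGGGAA on either strand in at least 1 window. The 8 genes had 14 windows, of which 4 held TGGGAA. Of all 27025 genes in the table, 28.3% held it in at least 1 window, and 25.6% of all 32851 windows of this length did. A gene with more windows has more occasions for a match, so the share of windows is the closer comparison. The E-box CACGTG, bound by HEY and HES repressors among others, was present for 2 of the 8 genes, P2ry2 and P2ry12, and for 8.09% of all genes. The CArG box of serum response factor was found for 0 of the 8 genes and for 1.81% of all genes. These are matches of letters, and binding was not measured.

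Libraries held 20289487 to 54481934 reads assigned to genes. Notch3 itself, in CPM, the read count scaled to a common library size, was 83.6 ± 12.0 in Notch3+/+ and 16.2 ± 1.82 in Notch3-/- mice, and 73.2 ± 8.19 in WT and 182 ± 34.5 in TgNotch3R169C mice (mean ± SD, n = 8). In TgNotch3R169C mice, reads from the mouse gene and from the rat transgene cannot be told apart in this count. The arteries were mixed tissue. Markers of smooth muscle, pericytes, endothelium, fibroblasts, microglia, and border macrophages were all expressed, and neuron markers summed to between 188 and 985 CPM. In 7 libraries the choroid plexus markers summed to over 1000 CPM; these came from 1 Notch3-/-, 2 TgNotch3R169C and 4 WT mice and 0 Notch3+/+ mice. Differences are therefore also given without these 7 libraries where they moved most. Each receptor was well covered except P2ry2, which had 37 to 167 reads per library. In a bulk sample, fewer cells of a type and less RNA per cell cannot be told apart.

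Per kilobase of exon, the means over the 32 libraries fell into 2 bands. Those of 8 of the 10 receptors lay between 3.85 and 8.97 CPM per kb, and P2ry14 (0.856 ± 0.117) and P2ry2 (0.634 ± 0.182) lay below 1. Within groups the bands were less clear. P2rx1 was at 2.89 in WT and 1.85 in TgNotch3R169C mice, and Adora1 at 3.02 in Notch3+/+ and 3.38 in Notch3-/- mice. P2ry1, the ADP receptor that couples to Gq, had the highest mean at 8.97 ± 1.76 CPM per kb, though in TgNotch3R169C mice P2rx7 (7.61 ± 0.780) ranked above it (7.36 ± 0.867), by less than the SD. Over the 32 libraries, the gaps from P2ry1 to P2rx7 (7.44 ± 1.30) and from P2rx7 to P2rx4 (7.10 ± 0.636) were smaller than the SD. Within the Notch3+/+ and Notch3-/- groups P2ry1 led the next gene by more than the SD, with gaps of 2.91 and 3.08 CPM per kb. Over all libraries P2ry12 followed at 6.09 ± 0.929 CPM per kb. P2ry6 (4.52 ± 0.631), Adora2a (4.18 ± 0.597), Adora1 (4.11 ± 1.64) and P2rx1 (3.85 ± 2.04) followed, and the gaps between neighbors among these 4 were smaller than their spread. The annotated exons of P2ry14 span 11.1 kb, which lowers its value per kilobase.

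**Figure D1:**
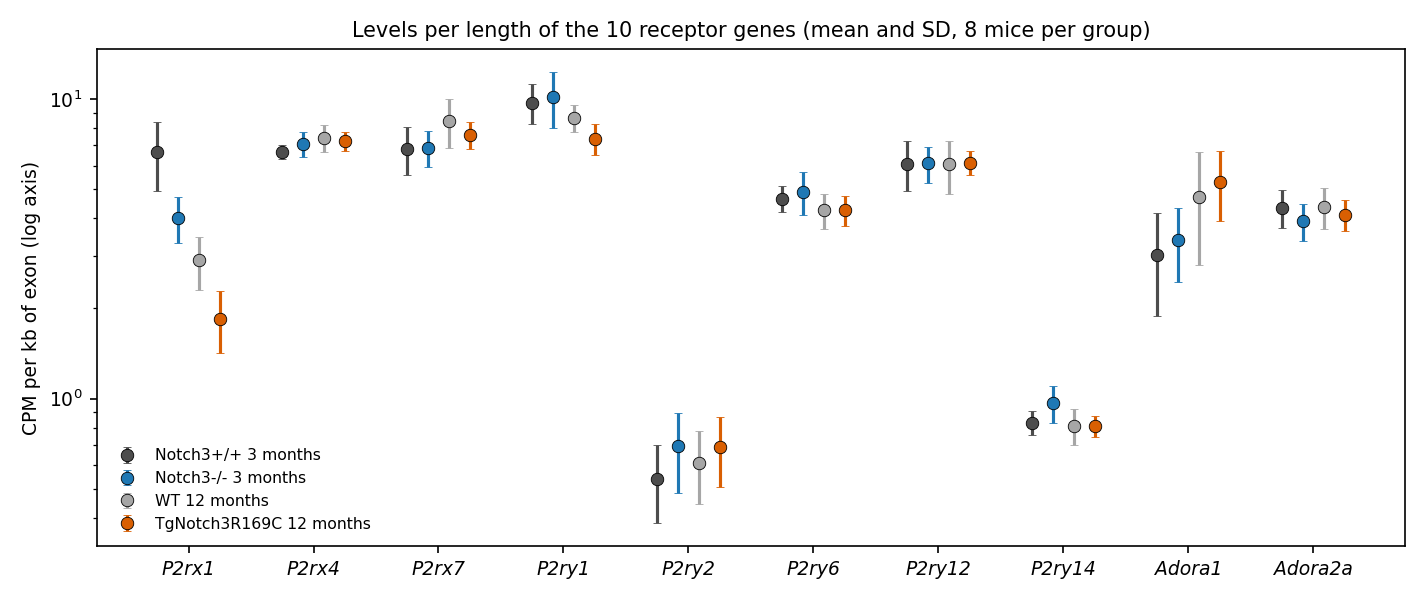
Level of each receptor gene in each group as CPM per kb of exon on a log axis; points are means and bars are SDs over 8 mice. The level of P2rx1 goes from 6.65 CPM per kb in Notch3+/+ mice to 1.85 in TgNotch3R169C mice, while P2ry12 stays between 6.05 and 6.14 in the 4 groups.

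P2rx1 was the receptor whose place in this order moved most. In Notch3+/+ mice it ranked 4 of 10, at 6.65 ± 1.71 CPM per kb, within 1 SD of P2rx7 and P2rx4. In the 12-month groups it ranked 8 of 10, at 2.89 ± 0.578 CPM per kb in WT and 1.85 ± 0.431 in TgNotch3R169C mice. Only P2ry14 and P2ry2 were lower there.

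P2rx1 encodes the P2X1 channel of arterial smooth muscle, which is also found on platelets. In Notch3+/+ mice its level was 12.8 CPM at the lowest, 17.1 at the median and 24.7 at the highest. In Notch3-/- mice the corresponding values were 8.22, 10.8 and 13.2 CPM. Of the 8 Notch3-/- mice, 7 lay below all Notch3+/+ mice, all 8 lay below the Notch3+/+ mean, and the ranges overlapped at their ends. The difference was −0.73 on the log2 scale (SE 0.148), a ratio of 0.604, and leaving out each mouse in turn gave −0.78 to −0.63.

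At 12 months, P2rx1 in WT mice was 5.35 CPM at the lowest, 7.63 at the median and 9.58 at the highest. In TgNotch3R169C mice it was 3.15, 4.94 and 6.36 CPM. All 8 transgenic mice lay below the WT mean, and the ranges overlapped. The difference was −0.64 on the log2 scale (SE 0.159), a ratio of 0.642, with −0.71 to −0.57 when each mouse was left out in turn. Without the 7 choroid-rich libraries, the differences were −0.68 in Notch3-/- and −0.66 in TgNotch3R169C mice.

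P2rx1 also differed between the control groups, and these sizes were not tested against each other. It was lower in WT mice aged 12 months than in Notch3+/+ mice aged 3 months by 1.21 on the log2 scale (log2 fold change −1.21, 95% CI −1.54 to −0.88, SE 0.157), a ratio of 0.433. The adjusted p from edgeR's quasi-likelihood test was 0.00042, that from DESeq2 was 3.53e-11 and that from limma voom was 0.00068. The highest of the 8 WT mice, at 9.58 CPM, was below the lowest of the 8 Notch3+/+ mice, at 12.8 CPM. Such a gap, with the 12-month mice lower, was found for 0.845% of all genes tested. EdgeR called 7.92% of genes in this comparison and 4.05% as lower, DESeq2 called 13.1% and voom 7.08%. These control libraries also serve in the other comparisons, and age, mouse line and litter cannot be told apart between them.

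Most smooth muscle markers were lower in the same groups. The 8 markers (Acta2, Myh11, Tagln, Cnn1, Smtn, Lmod1, Des, and Myocd, most of them parts or regulators of the contractile apparatus) summed to 2674 ± 526 CPM in Notch3+/+ mice and 1669 ± 269 in Notch3-/- mice. They summed to 1487 ± 209 CPM in WT and 1277 ± 169 in TgNotch3R169C mice. In Notch3-/- mice 5 of 8 were called lower by edgeR, among them Myh11 at −1.04 (adjusted p = 0.00039) and Acta2 at −0.63 (adjusted p = 0.019), and their median was −0.63 on the log2 scale, against −0.0011 for all genes. Des, which encodes desmin, went the other way, at 0.28 (edgeR unadjusted p = 0.00655, adjusted p = 0.296). In TgNotch3R169C mice all 8 were negative, with a median of −0.23 against −0.0074 for all genes; 0 of 8 were called by edgeR, DESeq2 or voom, and 3 had an unadjusted edgeR p under 0.05. Between the control groups 8 of 8 were called lower at 12 months, with a median of −0.88.

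Taken per 1000 CPM of these markers, P2rx1 was 6.49 ± 0.757 in Notch3+/+ and 6.33 ± 0.817 in Notch3-/- mice, a difference smaller than the SD. It was 5.09 ± 0.580 in WT mice, with a range of 3.92 to 5.45, and 3.78 ± 0.543 in TgNotch3R169C mice, with a range of 2.63 to 4.29. In the transgenic comparison P2rx1 was thus lower relative to the markers as well as in CPM, with ranges that overlapped. When the mean level of the marker list was entered as a covariate, the P2rx1 difference was −0.19 (SE 0.159) in Notch3-/- and −0.31 (SE 0.114) in TgNotch3R169C mice. Between the control groups it was then −0.25 (SE 0.196, edgeR adjusted p = 0.675), in a fit that called 0 of 17643 genes. Platelet and megakaryocyte markers, 6 genes, summed to 5.20 to 15.0 CPM over all libraries, and of the 4 that were tested 0 were called in any of these comparisons by edgeR, DESeq2 or voom, or had an unadjusted edgeR p under 0.05.

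**Figure D2:**
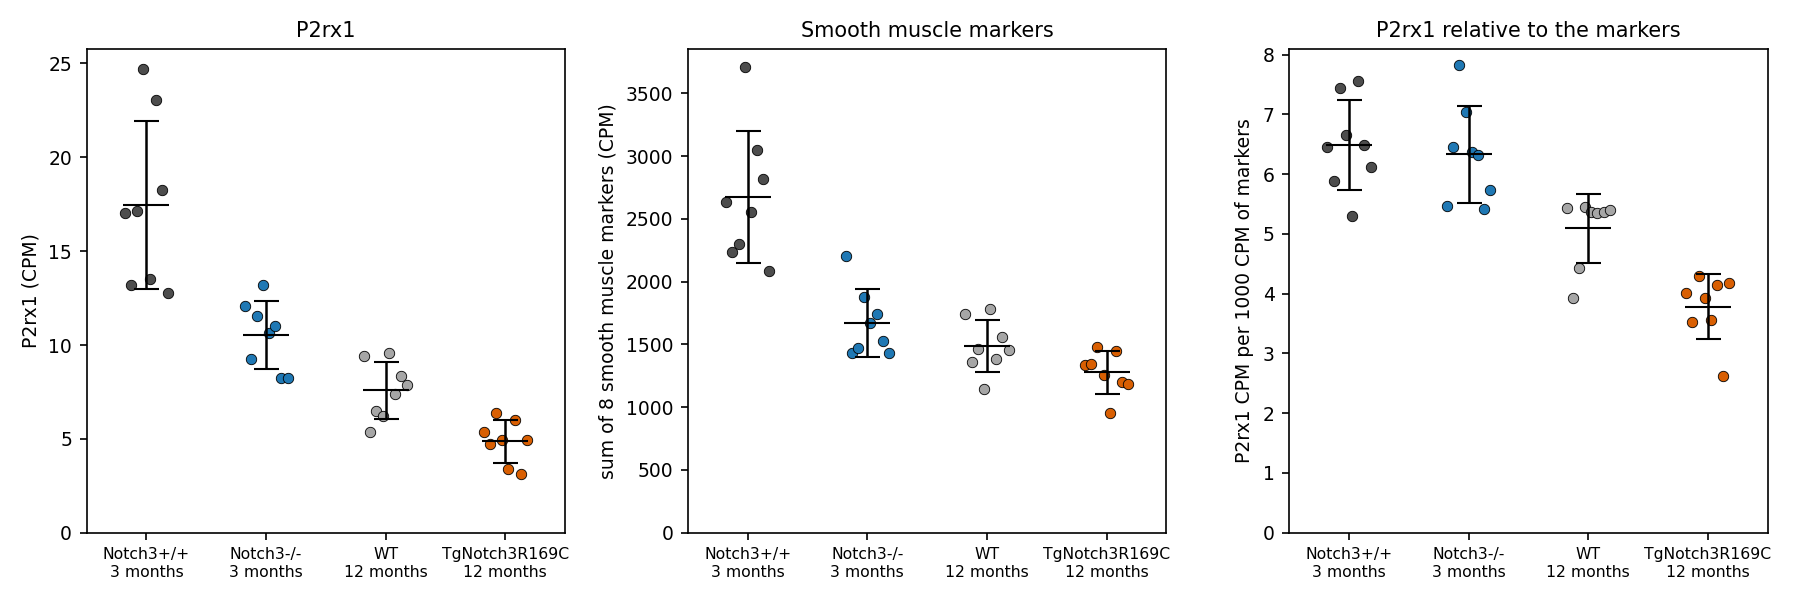
P2rx1 in CPM (left), the summed CPM of 8 smooth muscle markers (middle) and P2rx1 CPM per 1000 CPM of those markers (right); each point is 1 mouse and the lines are the mean and SD of 8 mice. The ratio is alike in Notch3+/+ (6.49) and Notch3-/- (6.33) mice and lower in TgNotch3R169C (3.78) than in WT (5.09) mice.

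The other 9 receptors showed no call in Notch3-/- mice. EdgeR, DESeq2 and limma voom each called 0 of 9, where they called 0.649%, 1.57% and 0.638% of all genes. Of the 9, 1 had an unadjusted edgeR p under 0.05, as 7.69% of all genes did. Of the 9 log2 fold changes 8 were positive, with a median of 0.08 against −0.0011 for all genes. The gene with the low unadjusted p was P2ry14, the receptor for UDP-glucose, which couples to Gi. P2ry14 ranged from 7.91 to 10.2 CPM in Notch3+/+ mice with a median of 9.03, and from 7.95 to 12.5 CPM in Notch3-/- mice with a median of 11.0. In 7 of 8 Notch3-/- mice it lay above the Notch3+/+ mean, and the ranges overlapped. The lowest Notch3-/- value came from replicate 8, the choroid-rich library of that group, and the next lowest was 9.70 CPM. The log2 fold change of P2ry14 was 0.22 (SE 0.0889, 95% CI 0.04 to 0.41, edgeR unadjusted p = 0.0226, adjusted p = 0.504). Without the choroid-rich library it was 0.28 (SE 0.0753, edgeR adjusted p = 0.145), again not called.

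The intervals of the remaining receptors show what size of change the data leave possible in Notch3-/- mice. The narrowest was that of P2rx4, an ATP-gated channel of endothelium and macrophages, at 0.09 (95% CI −0.03 to 0.20). P2rx7, the channel that responds to high ATP in immune cells, was at 0.02 (95% CI −0.21 to 0.24). The Gq-coupled receptors were at 0.07 (95% CI −0.19 to 0.32) for P2ry1, 0.36 (95% CI −0.07 to 0.79) for the ATP and UTP receptor P2ry2, and 0.08 (95% CI −0.12 to 0.27) for the UDP receptor P2ry6. P2ry12, the Gi-coupled ADP receptor of microglia and platelets, was at 0.00 (95% CI −0.24 to 0.24). Of the adenosine receptors, the Gi-coupled Adora1 was at 0.16 (95% CI −0.30 to 0.62) and the Gs-coupled Adora2a, which relaxes smooth muscle, was at −0.15 (95% CI −0.36 to 0.06). Changes as large as that of P2rx1 in this comparison lie outside all of these intervals except that of P2ry2, whose upper end is 0.79.

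In TgNotch3R169C mice the 3 tools again called 0 of these 9 receptors, where edgeR called 0.113%, DESeq2 0.464% and voom 0.113% of all genes. The unadjusted edgeR p was under 0.05 for 1 of 9, as for 7.27% of all genes, and the median log2 fold change was −0.01, close to the −0.0074 of all genes. That gene was P2ry1. It ranged from 32.7 to 43.5 CPM in WT mice with a median of 36.3, and from 24.0 to 35.7 CPM in TgNotch3R169C mice with a median of 32.4. All 8 transgenic mice lay below the WT mean, but the ranges overlapped. Its log2 fold change was −0.24 (SE 0.0790, 95% CI −0.40 to −0.07, edgeR unadjusted p = 0.00855, adjusted p = 0.580).

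Among the other receptors in TgNotch3R169C mice, P2rx4 was at −0.04 (95% CI −0.18 to 0.11) and P2rx7 at −0.15 (95% CI −0.37 to 0.07). P2ry2 was at 0.17 (95% CI −0.23 to 0.58), P2ry6 at 0.00 (95% CI −0.18 to 0.19), P2ry12 at 0.02 (95% CI −0.22 to 0.26) and P2ry14 at −0.01 (95% CI −0.19 to 0.17). Adora2a was at −0.09 (95% CI −0.29 to 0.12). Adora1 had the widest interval, at 0.16 (95% CI −0.33 to 0.65), and it was −0.14 without the choroid-rich libraries. Without these libraries P2rx7 was at −0.33 (SE 0.0924, edgeR adjusted p = 0.402) and P2ry1 at −0.28 (SE 0.103, edgeR adjusted p = 0.531). P2ry12 was then at −0.12 and P2ry14 at −0.13, and 0 of the 9 receptors were called.

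**Figure D3:**
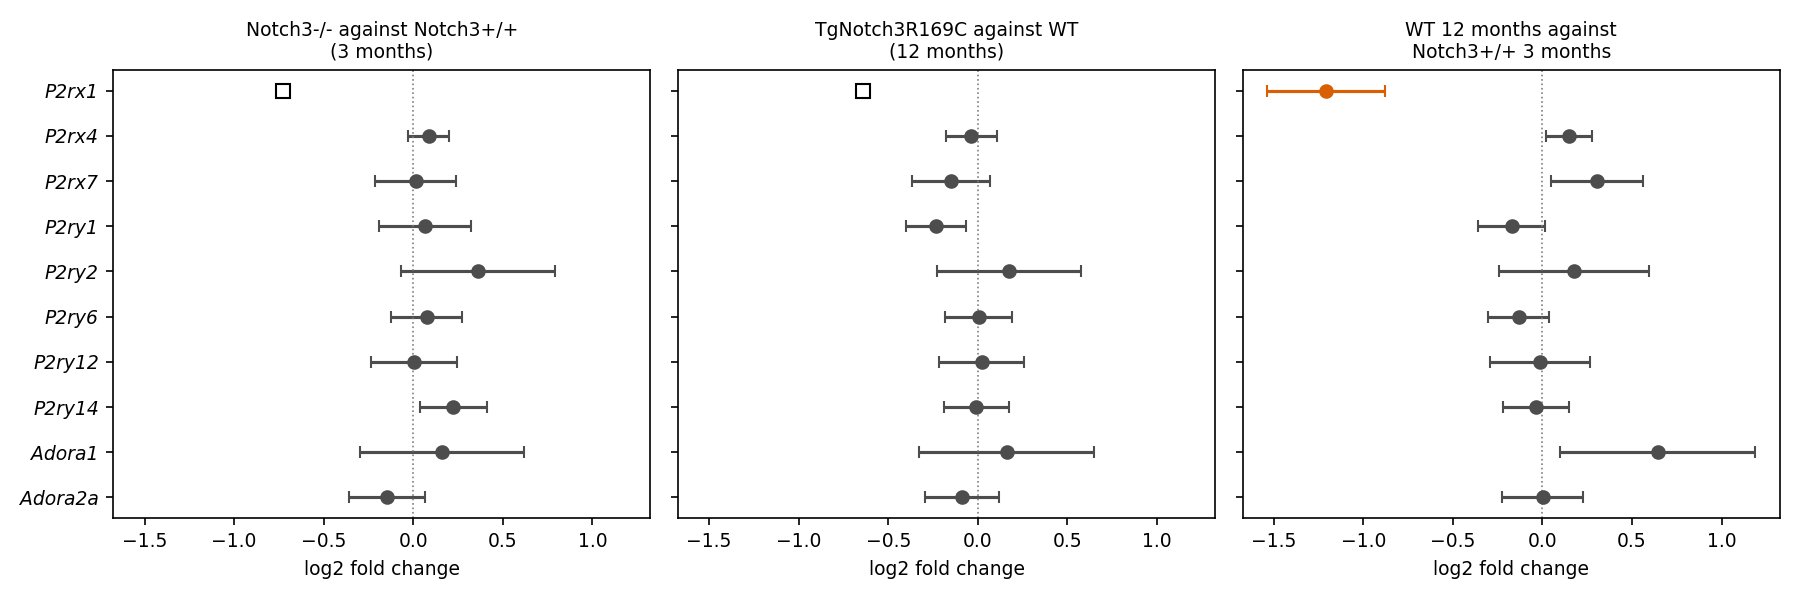
Log2 fold change of the 10 receptor genes in 3 comparisons; circles with bars are edgeR estimates with 95% CIs, orange where the adjusted p is under 0.05. Open squares are P2rx1 in the comparisons for which it was chosen, at −0.73 and −0.64, drawn without an interval.

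Whether a receptor responded differently in the mutants was tested as an interaction over all 32 libraries. Of the 9 receptors other than P2rx1, 0 were called by edgeR, DESeq2 or voom, and 0 had an unadjusted edgeR p under 0.05, where 0.35%, 0.835% and 0.366% of all genes were called and 8.62% had such a p. P2ry1 had the lowest p of the 9, with a difference of −0.30 (95% CI −0.60 to 0.01, edgeR unadjusted p = 0.0566, adjusted p = 0.598). P2ry14 was next at −0.23 (95% CI −0.47 to 0.02, unadjusted p = 0.0674, adjusted p = 0.610). For P2rx1, chosen for both of its changes, the difference between them was 0.09 with an SE of 0.219.

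Between the control groups, P2rx1 was the 1 receptor of 10 called by edgeR, and DESeq2 and voom each called 1 of 10 too. An unadjusted edgeR p under 0.05 was found for 3 others, all higher at 12 months. Over all genes, 24.2% had such a p, and 12.7% had one and were higher. Adora1 had the largest of these differences. It ranged from 11.1 to 31.3 CPM in Notch3+/+ mice with a median of 15.8, and from 13.2 to 48.2 CPM in WT mice aged 12 months with a median of 25.2. The ranges overlapped over most of their length. Its log2 fold change was 0.64 (SE 0.258, 95% CI 0.10 to 1.19, edgeR adjusted p = 0.133).

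The other 2 were the P2X channels of immune cells and endothelium. P2rx7 ranged from 31.4 to 55.2 CPM in Notch3+/+ mice and from 36.1 to 64.7 CPM in WT mice aged 12 months, at 0.31 (SE 0.122, edgeR adjusted p = 0.131). P2rx4 ranged from 42.6 to 51.5 CPM and from 40.4 to 56.5 CPM, at 0.15 (SE 0.0602, edgeR adjusted p = 0.137). Both ranges overlapped. The lowest P2rx4 value at 12 months came from WT replicate 4, a choroid-rich library; without that mouse the difference was 0.20 with an edgeR adjusted p of 0.0155, and without all choroid-rich libraries it was 0.23 with 0.0240. Adora1 was called without Notch3+/+ replicate 3, the mouse with 31.3 CPM, at 0.82 with an edgeR adjusted p of 0.0447. Without the choroid-rich libraries Adora1 was at 0.92 (edgeR adjusted p = 0.0898) and P2rx7 at 0.46 (edgeR adjusted p = 0.0895), neither of them called.

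Neuron markers were high in the mice in which Adora1 was high. Adora1 encodes the A1 receptor, abundant in neurons, and among mice of the same group its log2 CPM followed the mean of 8 neuron markers with Pearson's r = 0.898 and Spearman's rho = 0.889 over 32 libraries. The permutation p was 1e-05 for both, the smallest that 100000 permutations can give, with 0.00065 after adjustment over 130 pairs of receptor and marker list. In the 4 groups r ranged from 0.740 to 0.985, and it was 0.869 without the 2 libraries farthest from the median of the list. The summed neuron markers were 362 ± 236 CPM (median 275) in Notch3+/+ and 431 ± 170 (median 397) in WT mice. Between these groups 7 of 8 were higher at 12 months, with a median log2 fold change of 0.31 against 0.0026 for all genes. Of the 8, 0 were called there by edgeR, DESeq2 or voom or had an unadjusted edgeR p under 0.05. In TgNotch3R169C against WT mice all 8 were positive, with a median of 0.27, and again 0 were called. With the list as a covariate, the Adora1 difference between the control groups was 0.30 (SE 0.104, edgeR adjusted p = 0.0840), and that in TgNotch3R169C mice was −0.12 in place of 0.16; neither was called with or without the covariate.

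Each P2X channel had its highest r with another list, and they shared some lists. P2rx1 followed the smooth muscle list, with r = 0.783 and rho = 0.822 (permutation p = 1e-05, adjusted p = 0.00065 for both), and r lay between 0.621 and 0.859 in the 4 groups. It also followed the border macrophage list (r = 0.554, permutation adjusted p = 0.0221; rho = 0.595, adjusted p = 0.0154). With the platelet list its r was 0.31, which did not pass the threshold after adjustment. P2rx4 followed fibroblast markers (r = 0.676, permutation adjusted p = 0.0013; rho = 0.685, adjusted p = 0.0026), and P2rx7 followed microglia markers (r = 0.652, permutation adjusted p = 0.00416; rho = 0.534, adjusted p = 0.0434). P2rx4 also followed pericyte (r = 0.634, permutation adjusted p = 0.0052) and microglia markers (r = 0.607, permutation adjusted p = 0.0211). P2rx7 also followed pericyte (r = 0.525, permutation adjusted p = 0.0221) and border macrophage markers (r = 0.503, permutation adjusted p = 0.0211). Within groups r ranged from 0.363 to 0.895 for P2rx4 with fibroblast markers and from 0.167 to 0.910 for P2rx7 with microglia markers, so that of P2rx7 was weak in at least 1 group.

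Among the P2Y receptors, P2ry12, a defining gene of microglia that was kept off the list, followed 8 other microglia markers with r = 0.715 (permutation adjusted p = 0.0013) and rho = 0.539 (adjusted p = 0.0425). That r fell to 0.562 without the 2 libraries farthest from the median and ranged from 0.153 to 0.937 within groups. P2ry14 followed border macrophage markers (r = 0.575, permutation adjusted p = 0.00477) and endothelial markers (r = 0.567, permutation adjusted p = 0.0133) about equally, and also smooth muscle (rho = 0.508, permutation adjusted p = 0.0444) and pericyte markers (r = 0.478, permutation adjusted p = 0.0313). P2ry6 followed fibroblast markers (r = 0.525, permutation adjusted p = 0.0253). P2ry2 followed the list of T cell, B cell and neutrophil markers (r = 0.472, permutation adjusted p = 0.0469; rho = 0.455, adjusted p = 0.0575). P2ry1 and Adora2a followed 0 of the 13 lists, with highest r of 0.211 and 0.325. In all, 24 of 130 pairs passed the threshold for r, 17 with a positive and 7 with a negative sign. CPM values are relative to the rest of the library, and the markers of some tissues differed widely between libraries. Whether this shaped these r values was not tested.

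**Figure D4:**
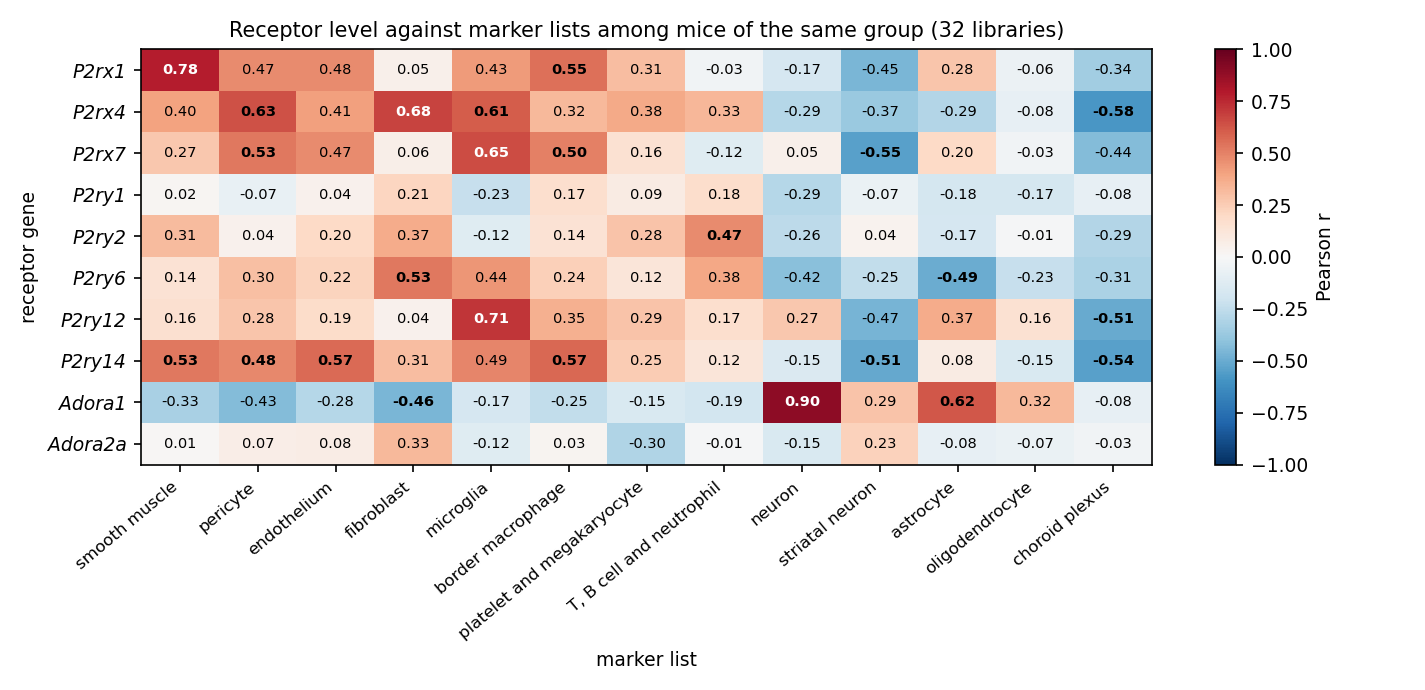
Pearson r of each receptor gene (rows) with the mean log2 CPM of each marker list (columns) over 32 libraries, after the group means were subtracted; bold marks a permutation adjusted p under 0.05. The highest values are those of Adora1 with neuron (0.898) and P2rx1 with smooth muscle (0.783), and the P2ry1 and Adora2a rows hold no bold value.

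**Figure D5:**
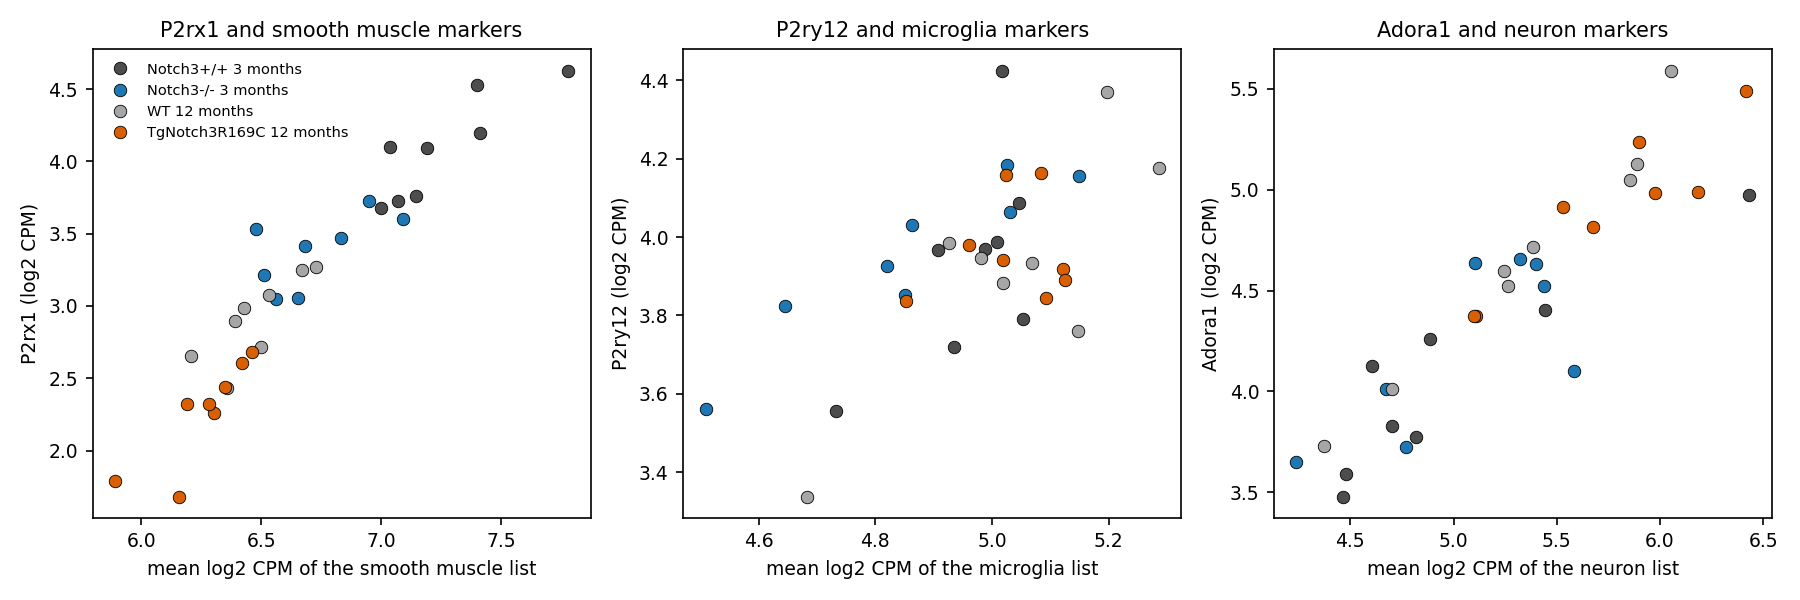
Log2 CPM of P2rx1, P2ry12 and Adora1 (vertical) against the mean log2 CPM of the smooth muscle, microglia and neuron lists (horizontal); each point is 1 mouse, colored by group. P2rx1 is higher where its list is higher and both are highest in Notch3+/+ mice, whereas the 4 groups are intermingled for P2ry12.

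The single genes most like each receptor among mice of the same group were taken from 18554 others, as a description. For P2rx1 the 5 nearest were Myom1 (r = 0.875), Kcnmb1 (0.840), Cnn1 (0.825), Myh11 (0.809) and Csrp1 (0.797). Kcnmb1 is the smooth muscle subunit of the calcium-activated potassium channel, Cnn1 and Myh11 belong to the contractile apparatus, and Myom1 encodes an M-band protein of striated muscle. The lowest r within a group was 0.857 for Myom1. For P2rx7 they were Dbp (0.859), Per3 (0.851), Lefty1 (0.842), Eef2k (0.842) and Hpgds (0.836), of which Dbp and Per3 belong to the circadian clock. For Dbp the r within groups was 0.788 to 0.931. The time of day at which each mouse was taken is not given in the sources used here.

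For P2ry1 the nearest were Stk17b, Fkbp5, Clint1, Hipk1 and Tsc22d3, led by r = 0.806, and Fkbp5 and Tsc22d3 are classic glucocorticoid-induced genes. For P2ry6 they were Nckap1l, Ctss, Il10ra, Mpeg1 and Aif1, led by r = 0.871, all known from macrophages and microglia. For P2ry12 they included Klhl23, Lilrb4a, P2ry13 and Zfp202, led by r = 0.802, and P2ry13 is the other Gi-coupled ADP receptor. For Adora1 they were Gpr158, Sncb, Tmem151b, Kcnj9 and Anks1b, led by r = 0.921, genes known from neurons. P2rx4 was nearest to Gsdmd, Lyl1, Cyba, Adamts10 and Axl (r = 0.867 for the first), and P2ry2 to Litaf, Rhoj, Nipal1, Stat3 and Gprc5a (0.825). P2ry14 (Gm47218, Arl15, Mtmr11, Nusap1, Mcm6; 0.739 for the first) and Adora2a (Gna15, Lemd2, Dusp27, Zfp12, Zfp746; 0.655) had the loosest neighbors, and for P2ry14 the r with Gm47218 was as low as 0.276 in 1 group.

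Some of these receptors share their locus with other genes. P2ry12 exons overlap exons of Med12l on the other strand, and P2ry14 lies within Med12l, which had 18197 reads over the 32 libraries against 16824 for P2ry12 and 10200 for P2ry14. Adora1 exons overlap those of Mybph on the other strand, which had 464 reads against 25216. The libraries kept strand, but the strand setting of the counting is not given in the sources used here. An exchange of reads at these loci therefore cannot be told apart from expression, and its size is not known.

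The rest of the purinergic system was read from lists of 53 genes, of which 52 were matched to the table. They covered the other receptors, nucleotide release, hydrolysis of extracellular nucleotides, adenosine uptake and metabolism, and G protein signaling downstream. In Notch3-/- mice 0 of 46 tested genes were called by edgeR, DESeq2 or voom, and 5 lower and 2 higher had an unadjusted edgeR p under 0.05. Over all genes, the 3 tools called 0.649%, 1.57% and 0.638%, and 7.69% had such a p. The lower ones were Pde3a, which breaks down cyclic AMP in smooth muscle (log2 fold change −0.46, unadjusted p = 0.00327), the nucleotide pyrophosphatases Enpp3 (−0.24) and Enpp1 (−0.17), Adcy5 (−0.15) and Pde4d (−0.27). The higher ones were the nucleoside transporter Slc29a4 (1.69) and the purine phosphorylase Pnp (0.25). Slc29a4 was 18.9 ± 35.7 CPM in Notch3-/- mice, an SD larger than the mean, and that group holds 1 choroid-rich library.

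In TgNotch3R169C mice 0 of 46 were called by the 3 tools, and 2 on each side had an unadjusted edgeR p under 0.05, as did 7.27% of all genes. Panx1, a channel through which cells release ATP, was at 0.34 (8.66 ± 1.23 against 6.83 ± 1.15 CPM, unadjusted p = 0.00677, adjusted p = 0.532), and Pde4d was at 0.27. Enpp3 (−0.28) and the adenylyl cyclase Adcy6 (−0.10) were lower. The median was 0.0001 against −0.0074 for all genes. Between the control groups 4 of 45 were called by edgeR, a share near the 7.92% of all genes. The 3 lower at 12 months were Pde3a (−0.82, adjusted p = 0.00143), the connexin gene Gja1 (−0.42, adjusted p = 0.00034) and the G protein gene Gnaq (−0.15, adjusted p = 0.0383). Slc29a4 was higher (3.03, adjusted p = 0.00871), at 47.3 ± 48.3 CPM against 5.79 ± 1.43 CPM, and 4 of the 8 mice of the higher group gave choroid-rich libraries.

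Of the 8 receptors of these families outside the set of 10, P2ry13 had the highest level in CPM, at 15.7 ± 1.66 in Notch3+/+ and 14.6 ± 2.61 in Notch3-/- mice. The P2X subunit genes P2rx5 and P2rx6 and the low-affinity adenosine receptor Adora2b had means of 4.25 to 7.24 CPM in the 4 groups. P2rx2, P2rx3, P2ry4 and Adora3 had means of at most 1.04 CPM. P2ry4 passed the filter on low counts in no comparison. Among the comparisons of 2 groups, P2rx2 passed only in TgNotch3R169C and Adora3 only in Notch3-/- mice. Both also passed in the interaction over all groups. There P2rx2 was at 3.14 (edgeR unadjusted p = 0.0182, adjusted p = 0.460), with 1.04 ± 1.81 CPM in Notch3+/+ mice, an SD larger than the mean. Of those tested, 0 were called in Notch3-/- or TgNotch3R169C mice or between the control groups by edgeR, DESeq2 or voom, and 0 had an unadjusted edgeR p under 0.05 in these comparisons.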

How the data were processed

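Whole-number read counts were deposited by the authors for 55357 Ensembl genes in 32 brain artery libraries, 1 per mouse, made with a stranded poly(A) kit. The submitters' processing notes name build mm39, bcl2fastq 2.20.0.422, cutadapt 1.10, Bowtie2 2.2.8, STAR 2.5.3a and HTSeq 0.6.1p1, without roles. Symbols were matched for 52081 of them. The receptors, the purinergic lists and the marker lists were chosen with earlier results of these data known. Genes outside the 10 were named if called, if their unadjusted p was under 0.05 where 0 were called, or if among the 5 with the highest r to a receptor, of which 1 is left out of the text. Smooth muscle markers, Med12l, Mybph and the low receptors were named beyond this rule, after their values were seen.

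The quasi-likelihood test of edgeR 4.0.16 in R 4.3.3, with filterByExpr and TMM, was fitted to each pair of groups, over 17714, 17731 and 17643 genes, with an interaction over 18555 genes in a fit of all 4 groups. Benjamini-Hochberg adjusted p under 0.05 over all genes was called. DESeq2 1.42.0 and limma 3.58.1 (voom) were run beside it. CPM used TMM library sizes, and log2 CPM a prior count of 2. Exon lengths came from GENCODE vM21, which is of another build than the counts, so no coordinates of the counts are given. Correlations used log2 CPM less the group mean and 2-sided permutation within groups. Libraries of a group were compared for duplicates, and the lowest chi-square per gene of any pair was 10.6, far above counting noise. The fits were tested on simulated data. Alternatives were other normalizations, filters and tools, 1 fit of all groups, a replicate block, marker lists or Xist as covariates, and leaving out each library. Leaving out the 7 choroid-rich libraries was added after the data were seen.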

Additional observations from a re-analysis of the deposited data

Results flagged for a closer look

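One value among the 10 receptors stood apart from its group. P2ry14 in WT replicate 1 aged 12 months was 11.6 CPM, and the next highest of the 8 WT mice was 9.28 CPM. The gap was 0.540 of the range of the group, above the 95% critical value of Dixon's test. Of 40 groups of values examined, 1 was flagged, where chance would give about 2. Without this mouse the P2ry14 difference of TgNotch3R169C from WT mice was 0.06 in place of −0.01, and it was called in neither case.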

How the results depend on the processing

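The counts of called receptors other than P2rx1 stayed at 0 in Notch3-/- mice, in TgNotch3R169C mice and in the interaction under all alternatives run. The P2rx1 differences stayed within −0.78 to −0.63 in Notch3-/- and −0.71 to −0.57 in TgNotch3R169C mice when libraries were left out. With the smooth muscle list as a covariate they moved to −0.19 and −0.31. Between the control groups the count of called receptors was 1. It was 0 with the smooth muscle list as a covariate, a fit that called 0 genes in all, and 2 without the choroid-rich libraries, where P2rx4 was added. Leaving out 1 library gave 1 to 2, with Adora1 added without Notch3+/+ replicate 3 and P2rx4 without WT replicate 4. P2rx1 lay between −1.27 and −1.13 in these fits. With the replicate number as a block the count was 2, with Adora1 at 0.61 (edgeR adjusted p = 0.0414); the block changed no other call. The labels do not say whether same-numbered mice are paired. Same-numbered deviations correlated at −0.146 to 0.383 in the Notch3 comparison, where 4 of 8 mice matched their own number best. In the transgenic comparison they correlated at −0.242 to 0.449, and 1 of 8 mice matched its own number best. These values do not settle whether the numbers pair the mice. The sign of Adora1 changed in Notch3-/- mice with the smooth muscle covariate (−0.19). Receptors near 0 changed sign under some settings without being called. Low counts limit P2ry2. The cause of these changes was not tested.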
